A study of Mus musculus with 24 samples.

Results

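Clusterin (Clu, gene ID 12759, chromosome 14) was followed in the ventral prostate of 6 inbred mouse strains. It is 1 of 12393 genes with a probe set of a single symbol on the array. All probe sets annotated to that symbol alone were used, which were 4 of 22626 probe sets without the array's controls. The 4 were 1418626_a_at, 1437458_x_at, 1437689_x_at and 1454849_x_at, and all 4 were among the 15775 probe sets bright enough to be tested. Clu was chosen by its measured intensity on these same arrays, which differed widely between the strain means. Its own levels are therefore given as a description, with no test.

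The study measured total RNA of the ventral prostate on MOE430A arrays, with 4 biological replicates from each inbred strain: C57BL/6, BALB/c, FVB, 129X1, SWR and AKR. All mice were wild type, untreated, kept on a standard diet and 8 weeks old, so strain is the only difference the labels give between groups. Each strain was sampled at 1 age and in 1 condition. The labels do not say whether tissue of several mice was pooled for an array.

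Clusterin, also called apolipoprotein J, is a secreted glycoprotein that is cleaved into an alpha and a beta chain held together by disulfide bonds. Outside the cell it keeps misfolded proteins in solution, travels with lipoprotein particles and blocks the assembly of the terminal complement complex. In the prostate it is known as a message that androgens repress, because it rises strongly in the regressing gland after castration.

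Clu was highest in FVB and lowest in C57BL/6 at all 4 probe sets. The brightest of them, 1454849_x_at, is taken as the main measure. The deposited intensity there was 6229, 5684, 6961 and 4735 on the FVB arrays numbered 1 to 4. It was 543, 453, 466 and 491 in C57BL/6. It was 782, 737, 805 and 850 in AKR. All 4 FVB arrays lay far above all others, and the C57BL/6 arrays lay below every array of the other 5 strains.

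The remaining strains sat between these ends. At 1454849_x_at the intensity was 900, 720, 846 and 975 in SWR. It was 1414, 1025, 1142 and 939 in 129X1. It was 878, 1351, 937 and 1106 in BALB/c. The 129X1 and BALB/c arrays covered nearly the same span, and the SWR arrays overlapped both with them and with AKR.

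**Figure D1:**
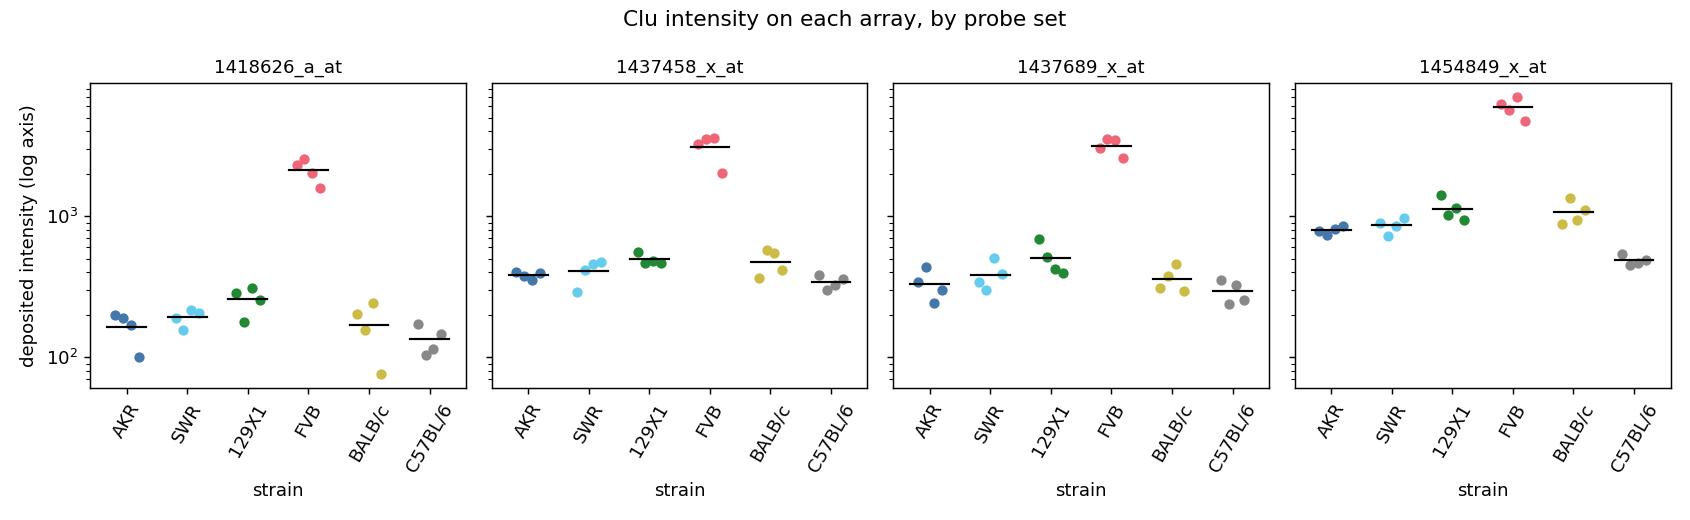
Deposited intensity of the 4 Clu probe sets (log axis) on each of the 24 arrays, by strain. Points are arrays in the order of their replicate numbers and bars are strain means. The FVB arrays lie above all other arrays in every panel, at 4735 to 6961 against 453 to 1414 for 1454849_x_at.

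The mean intensity at 1454849_x_at was 5902 ± 938 (SD, n = 4) in FVB and 488 ± 39.8 (SD, n = 4) in C57BL/6. On the log2 scale, after rescaling of each array and addition of 16, the means were 12.51 ± 0.26 in FVB and 8.97 ± 0.11 in C57BL/6 (SD, n = 4 each). BALB/c followed FVB at 10.15 ± 0.25 and 129X1 at 10.11 ± 0.24, then came SWR at 9.75 ± 0.20 and AKR at 9.64 ± 0.10. The gap from FVB down to BALB/c was 5.12-fold. BALB/c and 129X1 differed by 1.03-fold, 129X1 and SWR by 1.28-fold, and SWR and AKR by 1.08-fold, with overlapping arrays in each of these 3 pairs. AKR was 1.59-fold above C57BL/6, without overlap.

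The 3 dimmer probe sets had the same ends but another middle order. At 1418626_a_at the intensity was 2301, 2563, 2025 and 1584 in FVB, and between 76 and 312 on the other 20 arrays, with a median of 184. At 1437458_x_at it was 3260, 3534, 3568 and 2033 in FVB, and between 291 and 574 elsewhere, with a median of 409. At 1437689_x_at it was 3056, 3495, 3487 and 2597 in FVB, and between 238 and 689 elsewhere, with a median of 348. The dimmest FVB array exceeded the brightest array of any other strain by 5.08-, 3.54- and 3.77-fold at these probe sets, and by 3.35-fold at 1454849_x_at.

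Below FVB, the second strain was 129X1 at 1418626_a_at and 1437689_x_at, and BALB/c at 1437458_x_at and 1454849_x_at. At the 3 dimmer probe sets all neighbours below FVB overlapped, including AKR and C57BL/6, which differed there by only 1.10- to 1.18-fold. The low level in C57BL/6 was thus separated from the other strains at 1454849_x_at, and its order below AKR was within the spread of the arrays at the other 3.

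The range between the highest and the lowest strain mean was 11.6-fold at 1454849_x_at, 14.2-fold at 1418626_a_at, 8.53-fold at 1437458_x_at and 10.3-fold at 1437689_x_at. Without FVB it was 2.27-, 1.78-, 1.45- and 1.63-fold in the same order. Strain accounted for 97.6%, 93.9%, 96.0% and 95.5% of the variance of the log2 values, and for 87.2%, 38.7%, 56.5% and 46.0% among the 20 arrays of the other 5 strains. The wide spread of Clu was thus mainly the distance of FVB from the rest.

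FVB exceeded the mean of the other 5 strains by 2.79 on the log2 scale (6.89-fold) at 1454849_x_at. The difference was 3.46 (11.0-fold) at 1418626_a_at, 2.81 (7.03-fold) at 1437458_x_at and 3.05 (8.29-fold) at 1437689_x_at. These were the 8th, the 3rd, the 7th and the 5th of the 15775 probe sets when ordered by how far FVB was above the others. Of all tested probe sets 3.45% were called higher and 3.65% lower in FVB, and 0.399% were called at least 2-fold higher and 0.311% at least 2-fold lower. Of the other 4 in the top 8, only 1425032_at has a single symbol (Scgb2b27, a secretoglobin), at 9.36-fold. C57BL/6 fell below the mean of the other 5 strains by 1.46 on the log2 scale at 1454849_x_at, and by 1.13, 0.90 and 0.99 at 1418626_a_at, 1437458_x_at and 1437689_x_at. That mean includes FVB, which raises it, so these values overstate the distance of C57BL/6 from the strains besides FVB. For the same reason BALB/c, the second highest strain at 1454849_x_at, stood at -0.04 against its other 5.

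The probe sets also differed in how they ranked against each other within an array. Affymetrix gives the suffix _x_at to sets with probes that can match other transcripts, and _a_at to sets that match several transcripts of 1 gene. The log2 value at 1454849_x_at minus that at 1437458_x_at was 0.50 ± 0.05 in C57BL/6 (SD, n = 4), and between 0.95 and 1.16 as a mean in the other 5 strains. Every C57BL/6 array, at 0.44 to 0.56, lay below every other array, the lowest of which was an FVB array at 0.68. The 2 probe sets thus put C57BL/6 at different distances from the other strains.

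Against 1418626_a_at the difference of 1454849_x_at was lowest in FVB, at 1.48 ± 0.26, and highest in BALB/c, at 2.64 ± 0.82 (SD, n = 4 each). Against 1437689_x_at it was lowest in C57BL/6, at 0.72 ± 0.20, and highest in BALB/c, at 1.53 ± 0.39. Arrays of several strains overlapped in both. These values compare strains on a within-array difference and say nothing of which probe set has the higher transcript level.

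**Figure D2:**
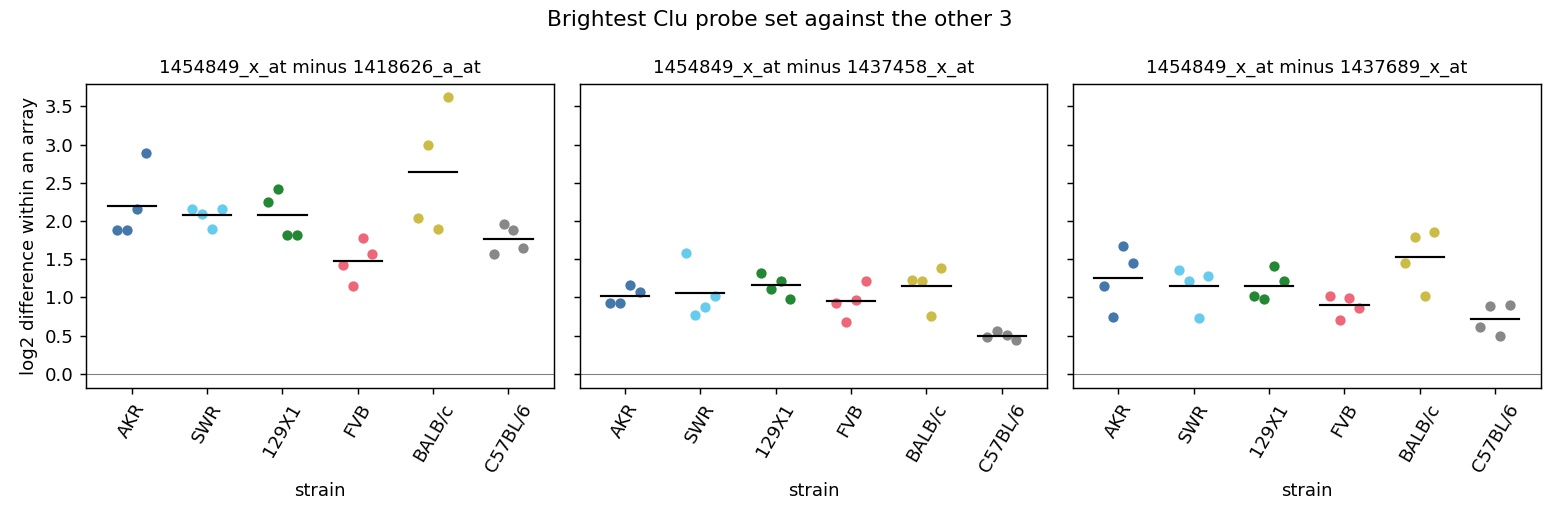
Difference on the log2 scale between 1454849_x_at and each of the other 3 Clu probe sets within an array. Points are arrays in the order of their replicate numbers and bars are strain means. In the middle panel the 4 C57BL/6 arrays, at 0.44 to 0.56, lie below all others.

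As a description, the Pearson correlation between pairs of Clu probe sets over the 24 arrays was 0.93 to 0.98. Over the 20 arrays without FVB it was 0.42 to 0.75, and for deviations from the strain means it was 0.04 to 0.58. Values of 1 array share its RNA and its scaling, so these are not independent readings.

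Within a strain, FVB replicate 4 was the lowest FVB array at all 4 probe sets, with deviations from the FVB mean of -0.30 to -0.59 on the log2 scale. C57BL/6 replicate 2 and 129X1 replicate 4 were also below their strain means at all 4 probe sets. SWR replicate 4, 129X1 replicate 1 and C57BL/6 replicate 1 were above theirs at all 4. The pooled SD within strains was 0.20 at 1454849_x_at, 0.25 at 1437458_x_at, 0.29 at 1437689_x_at and 0.39 at 1418626_a_at. The brightest probe set was also the tightest.

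The tissue label was compared with marker genes. Of 8 luminal markers, 6 were tested, and their summed intensity was 12281 to 16325 in FVB and 11112 to 20500 in the other strains. Both tested markers listed for the other prostate lobes, the secreted proteins Pbsn and Msmb, were bright as well, with a summed intensity over the list of 4661 to 20961. They were higher in BALB/c, by 2.61- and 2.30-fold (limma adjusted p = 0.0011 and 3.8e-06). AKR replicate 1 stood apart on them, with a score of -1.30 against 0.23 to 0.61 on the other AKR arrays, and Clu there was 9.59 against 9.54 to 9.75. Of 8 seminal vesicle markers only 2 were tested, and the summed intensity of the 6 on the array was 61.8 to 134 over all 24 arrays. Of 6 urothelial markers 3 were tested, and of 7 epididymal markers 3. The urothelial marker Upk1a was bright, with strain means from 9.80 in 129X1 to 10.56 in AKR. The tested epididymal markers were dim, with strain means of at most 6.63 (Defb2 in BALB/c). No tested seminal vesicle, urothelial, epididymal or other-lobe marker was called for FVB against the other 5 strains. The rule for a call is limma at a Benjamini-Hochberg adjusted p under 0.05.

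Some markers of other cell types were called in FVB against the other 5 strains, most of them of smooth muscle and adipocytes. In this contrast 3.49% of all 9431 genes were called higher in FVB and 3.51% lower. Of 10 smooth muscle markers, all tested, 8 were called higher, by 1.35-fold (Myl9) to 1.66-fold (Des). The number was 3 without FVB replicate 4, 4 without replicate 3 and 5 without replicate 1. Des and Myh11 were each called higher at 1 of their 2 probe sets, and Mylk at 2 of 3. The smooth muscle score, the mean of the markers' centred log2 values, was 0.27 to 0.58 in FVB and -0.86 to 0.79 elsewhere, and the summed intensity was 9750 to 11761 in FVB and 4949 to 13728 elsewhere. The 129X1 arrays had scores of 0.16 to 0.56, inside or near the FVB range, with Clu at 10.11 ± 0.24 (SD, n = 4). Scores in SWR were 0.01 to 0.79, with Clu at 9.75 ± 0.20 (SD, n = 4). The mean score was 0.42 in FVB, 0.39 in 129X1 and 0.29 in SWR. It was -0.18 in AKR, -0.24 in C57BL/6 and -0.68 in BALB/c.

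Of 8 adipocyte markers 5 were tested, and 4 were called higher in FVB: Adipoq by 4.20-fold, Car3 by 4.60-fold, Fabp4 by 4.16-fold and Lpl by 2.44-fold. The number was 2 without FVB replicate 4, and 2 without the 6 arrays numbered 4. The adipocyte score was -0.54, 1.91, 1.61 and 2.39 on FVB replicates 1 to 4, and Clu on the same arrays was 12.62, 12.45, 12.79 and 12.18. BALB/c replicate 1 had an adipocyte score of 2.34 with Clu at 9.91. Adipoq, Car3, Fabp4 and Lpl were also called higher in BALB/c, by 4.78-, 4.48-, 2.90- and 2.37-fold. In that strain 8.20% of all genes were called higher. The mean adipocyte score was 1.34 in FVB and 1.31 in BALB/c, so the high level was shared by both strains. The summed intensity of the adipocyte markers was 427 to 4519 in FVB and 271 to 4149 elsewhere. Of 6 tested skeletal muscle markers 1 was called higher in FVB, Acta1 (2.13-fold), with scores of -0.29 to 0.04 in FVB and -0.61 to 1.65 elsewhere. Of 2 tested erythroid markers 1 was, the heme synthesis enzyme Alas2 (1.66-fold), with scores of -0.17 to 0.34 in FVB and -0.96 to 0.46 elsewhere, and Hba-a1 was at 0.80 times the level of the others. Acta1 and Alas2 were also called higher in SWR, by 1.90- and 1.51-fold (limma adjusted p = 0.0016 and 0.030). In SWR 5.50% of all genes were called higher. Of the luminal markers, Epcam, an epithelial adhesion molecule, was called lower in FVB. The part of these markers in the FVB level of Clu, and in the FVB calls of other genes given next, was not tested. In bulk tissue fewer cells of a type and less RNA per cell cannot be told apart.

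**Figure D3:**
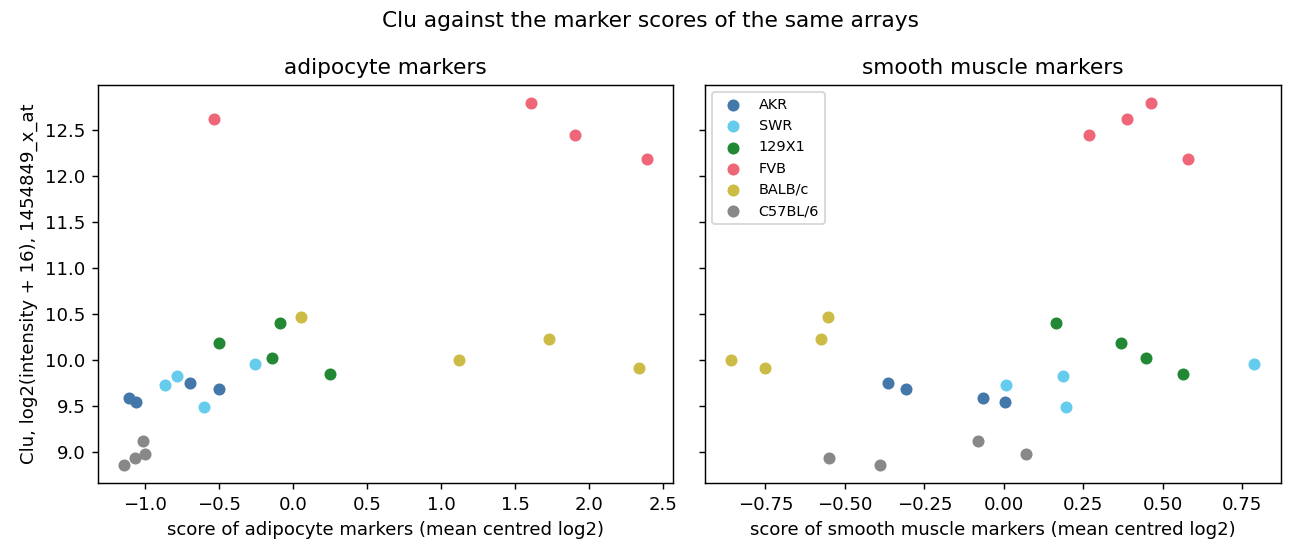
Clu at 1454849_x_at, as log2(intensity + 16), against the scores of adipocyte markers (left) and smooth muscle markers (right) on the same 24 arrays. Points are arrays coloured by strain. FVB lies above 12 at adipocyte scores from -0.54 to 2.39, and BALB/c stays below 10.5 at scores up to 2.34.

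Genes tied to clusterin by function were then compared between strains, on the brightest probe set of each. A moderated F test among the 6 strains (limma, Benjamini-Hochberg adjusted p under 0.05) called 35.0% of the 9431 genes (36.4% of probe sets), so counts of list members are read against that share. Calls for a single strain against the mean of the others were rarer. They took 4.25% (higher) and 5.03% (lower) of genes in AKR, 5.50% and 5.05% in SWR, and 6.37% and 5.28% in 129X1. They took 8.20% and 9.16% in BALB/c, and 5.12% and 5.66% in C57BL/6. The median range between strain means over all genes was 0.48 on the log2 scale, and the median FVB difference was 0.02. The replicates are labelled biological, with no statement of separate litters or handling days.

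Receptors that take up clusterin passed the test about as often as genes in general. Of 6 tested members 2 were called, and none was called in FVB. The uptake receptor Lrp1 had strain means from 6.78 ± 0.33 in BALB/c to 7.24 ± 0.18 in FVB (SD, n = 4; limma F test adjusted p = 0.034). Its chaperone Lrpap1 was lowest in C57BL/6, by 1.35-fold against the other 5 strains (limma adjusted p = 0.0028). The lipoprotein receptors Vldlr and Lrp8 were 1.21- and 1.23-fold above the others in FVB, with limma adjusted p = 0.29 and 0.27. The median FVB difference of the list was 0.24. The count was 1 without the 6 arrays numbered 4, where Lrp1 had an adjusted p of 0.19. It was also 1 without any 1 of 129X1 replicates 2 to 4, FVB replicates 3 and 4, or BALB/c replicates 1 and 3.

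Proprotein convertases cleave secreted precursors. Of 6 tested, 2 were called by the F test. Furin was highest in FVB, at 7.08 ± 0.11 against 6.44 ± 0.17 in BALB/c (SD, n = 4 each), and was 1.35-fold above the mean of the other 5 strains (limma adjusted p = 0.035). Leaving out any 1 of the 4 FVB arrays ended that call, with adjusted p from 0.075 to 0.13. Mbtps1, the site-1 protease, was highest in BALB/c (9.81 ± 0.08) and lowest in FVB (9.36 ± 0.17). The F test lost Furin in 15 and Mbtps1 in 4 of the 24 fits that each left out 1 array, and the count was 0 without FVB replicate 1 or without BALB/c replicate 2.

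Of 8 tested proteins reported to bind clusterin, 4 passed the F test and none was called in FVB. Xrcc6, the Ku70 DNA repair subunit, was 1.45-fold lower in SWR (limma adjusted p = 0.00041). Tgfbr1, a TGF-beta receptor, was 1.35-fold higher in 129X1 (adjusted p = 0.00054). Tgfbr2, its partner receptor, ran from 7.97 ± 0.18 in FVB to 8.59 ± 0.26 in AKR, and Bcl2l1, an inhibitor of apoptosis, from 7.53 ± 0.09 in C57BL/6 to 7.93 ± 0.07 in BALB/c (SD, n = 4). The F test call of Bcl2l1 was lost without C57BL/6 replicate 2 or 3 (adjusted p = 0.057 and 0.073). The endoplasmic reticulum chaperone Hspa5 had an F test adjusted p of 0.32. FVB was the highest strain for 1 of the 8. In the other lists it was highest for 4 of 6 tested receptors, 3 of 6 convertases and 1 of 5 extracellular chaperones. The count was 3 of 12 for complement, 3 of 10 for apolipoproteins, 4 of 15 for regulators and 0 of 16 for heat shock. It was 3 of 14 for genes reported to rise in the regressing prostate and 2 of 13 for androgen-dependent genes. It was 2 of 15 for progenitor and 3 of 13 for apoptosis genes. The share of all genes that are highest in FVB was not computed. These counts, also where repeated below, are therefore description only.

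Among 5 tested extracellular chaperones 3 passed the F test. Apoe, a lipid carrier that also binds misfolded proteins, was lowest in C57BL/6, by 2.17-fold (limma adjusted p = 7.4e-07). C57BL/6 was thus the low strain for both Apoe and Clu. In FVB Apoe stood at 9.06 ± 0.20 (SD, n = 4), 1.13-fold above the other 5 with an adjusted p of 0.46. Sparc, a collagen-binding matrix protein, ran from 9.09 ± 0.30 in AKR to 10.06 ± 0.21 in FVB, where its difference of 1.45-fold had an adjusted p of 0.061. Nucb1, a calcium-binding Golgi protein, was 1.47-fold lower in 129X1 (adjusted p = 0.0051).

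Complement genes passed the F test in 8 of 12 tested members, and 3 were higher in FVB. Cd59a, which blocks the terminal complement complex as clusterin does, was 1.89-fold higher in FVB (limma adjusted p = 8.3e-07). It was also 2.06-fold higher in SWR (adjusted p = 1.3e-07), at 8.71 ± 0.24 against 8.61 ± 0.10 in FVB (SD, n = 4 each). The pattern of Cd59a thus had 2 high strains and that of Clu 1. Serping1, the inhibitor of the starting complement proteases, was 1.72-fold higher in FVB (adjusted p = 4.8e-05) and 1.78-fold lower in AKR (adjusted p = 1.6e-05). C2, a component of the classical convertase, was 1.53-fold higher in FVB (adjusted p = 0.022), and lost that call without FVB replicate 1 (adjusted p = 0.16), replicate 3 (0.063) or replicate 4 (0.05). C1s1, a complement protease, was 1.92-fold higher in 129X1. C9, the pore-forming component, ran from 4.87 ± 0.42 in SWR to 5.99 ± 0.31 in AKR (SD, n = 4 each). Without the 6 arrays numbered 4 the count was 5.

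Apolipoproteins and lipid transfer proteins passed the F test in 6 of 10 tested members, with 2 higher in FVB. Apod, a lipocalin that carries small hydrophobic molecules, was 2.08-fold higher in FVB (limma adjusted p = 0.00017). Its log2 means were 9.89 ± 0.21 in FVB, 9.41 ± 0.47 in 129X1 and 8.21 ± 0.19 in AKR (SD, n = 4 each). Pltp, which moves phospholipids between lipoproteins, was 1.44-fold higher in FVB (adjusted p = 0.0043) at 1 of its 2 probe sets. Apof was 3.10-fold higher in AKR (adjusted p = 4.2e-07), and Apoc1 was 2.07-fold lower in C57BL/6 (adjusted p = 0.00011).

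Transcription factors and signals reported to act on the clusterin gene passed the F test in 5 of 15 tested members, close to the share of all genes, and none was called in FVB. Stat3, a cytokine-activated factor, was 1.40-fold higher in 129X1 (limma adjusted p = 0.0069). The ligand Tgfb2 was 1.40-fold lower in 129X1 (adjusted p = 0.0017), and was 1.25-fold above the others in FVB with an adjusted p of 0.053. Igf1r, the IGF receptor, ran from 6.38 ± 0.13 in 129X1 to 6.95 ± 0.28 in AKR (SD, n = 4). Jun, a subunit of AP-1, had an F test adjusted p of 0.0497, which rose above 0.05 in 20 of the 24 fits that each left out 1 array. Without rescaling of the arrays the count was 8.

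Heat shock chaperones were called by the F test in 9 of 16 tested members. Against the other 5 strains, 9 of the 16 were called higher and 1 lower in AKR, beside 4.25% and 5.03% of all genes. As a description, FVB was the highest strain for 0 of the 16. The inducible Hspa1b was 6.82-fold higher in AKR (limma adjusted p = 5.5e-07), with means of 11.13 ± 0.89 in AKR and 9.02 ± 0.23 in FVB (SD, n = 4 each). Hspa1a, which shares nearly all of its sequence with Hspa1b, was 5.88-fold higher in AKR, and their signals may be mixed. Dnaja1, a co-chaperone, was 1.76-fold higher in AKR (adjusted p = 0.0012). Hspb8, a small heat shock protein, was 1.77-fold higher in C57BL/6 (adjusted p = 1.7e-06). Hspb1 was 1.34-fold lower in FVB (adjusted p = 0.046), a call lost in 17 of the 24 fits that each left out 1 array, where adjusted p reached 0.17. The strain with the highest Hspa1b, AKR, was the second lowest for Clu at 1454849_x_at.

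Genes reported to rise in the regressing prostate were examined because Clu belongs with them. Of 14 tested members 10 passed the F test, and 1 was called in FVB. That 1 was Plat, a plasminogen activator, 1.38-fold higher (limma adjusted p = 0.047), and the call was lost in 17 of the 24 fits that each left out 1 array. Igfbp5, an IGF-binding protein, was highest in 129X1, by 1.88-fold (adjusted p = 8.0e-06), and stood at 9.48 ± 0.10 in FVB (SD, n = 4). Mgp, a matrix protein that inhibits calcification, was 2.08-fold higher in C57BL/6 (adjusted p = 1.1e-05), the strain with the lowest Clu. The glutathione transferase Gsta4 was 5.52-fold lower in C57BL/6 (adjusted p = 4.0e-12). Gstm1 was 1.48-fold lower in BALB/c (adjusted p = 0.00079). The median FVB difference of the list was 0.10.

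Androgen-dependent genes varied between strains in 11 of 13 tested members, and their FVB calls went both ways. Fkbp5, an androgen-induced immunophilin, was 1.55-fold higher in FVB (limma adjusted p = 0.00042). Mme, the membrane peptidase neprilysin, was 4.41-fold lower in FVB (adjusted p = 6.5e-13), at 8.12 ± 0.29, and SWR was low too at 8.68 ± 0.12 (SD, n = 4 each). Azgp1, a secreted zinc-binding glycoprotein, was 2.22-fold lower in FVB (adjusted p = 3.4e-08) and 2.76-fold lower in BALB/c (adjusted p = 3.4e-10). Zbtb16, an androgen- and glucocorticoid-induced factor, was 1.41-fold lower in FVB (adjusted p = 0.039), and lost that call without FVB replicates 1, 2 or 4 (adjusted p = 0.054, 0.10 and 0.26) and without 129X1 replicate 3 or C57BL/6 replicates 2 or 3 (0.051 each). Steap4, a metalloreductase, was 2.74-fold higher in 129X1. Pbsn was 2.61-fold higher in BALB/c (adjusted p = 0.0011), and its FVB difference of 1.40-fold had an adjusted p of 0.35.

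Proximal luminal, progenitor and injury-associated epithelial genes passed the F test in 14 of 15 tested members, with 2 higher and 1 lower in FVB. Psca, a surface antigen of proximal epithelium, was 2.35-fold higher in FVB (limma adjusted p = 0.00096), but highest in 129X1, at 8.72 ± 0.42 against 7.46 ± 0.32 in FVB (SD, n = 4 each). Prom1, a membrane protein of stem and luminal cells, was 1.74-fold higher in FVB (adjusted p = 0.0042; 0.078 without the 6 arrays numbered 4) and 2.33-fold higher in BALB/c. Wfdc2, a secreted protease inhibitor, was 1.65-fold lower in FVB (adjusted p = 4.1e-05). Krt4 was 5.38-fold lower in C57BL/6 (adjusted p = 2.2e-07), and Krt7 was 2.11-fold higher in AKR (adjusted p = 1.0e-06). As a description, the strain with the most Clu was the highest for 2 of the 15.

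Apoptosis genes passed the F test in 3 of 13 tested members, and none was called in FVB. Bcl2l1 is described above. The death receptor Fas ran from 4.63 ± 0.22 in C57BL/6 to 5.63 ± 0.24 in 129X1, and the initiator caspase Casp8 from 6.85 ± 0.11 in FVB to 7.36 ± 0.18 in 129X1 (SD, n = 4 each). The call of Casp8 was lost without 129X1 replicate 1 or 3 (limma adjusted p = 0.063 and 0.052). Without the 6 arrays numbered 4 the count was 0.

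The neighbours of Clu on chromosome 14 were compared to see how far the FVB difference extended along the chromosome. Among the 10 nearest tested genes on each side, 6 of 20 passed the F test, against 35.0% of all genes. These were Extl3, Scara5, Scara3, Ephx2, Kctd9 and Adamdec1. Only Scara5, a ferritin receptor, was called in FVB, at 1.38-fold higher (limma adjusted p = 0.017), with 7.62 ± 0.29 in FVB against 6.65 ± 0.20 in AKR (SD, n = 4 each). It was called at 1 of its 2 probe sets, and the call was lost without FVB replicate 3 (adjusted p = 0.062) or replicate 4 (0.12), and without the 6 arrays numbered 4 (0.10). The FVB differences of the 20 ran from -0.21 to 0.47 on the log2 scale, with a median of 0.05, and Clu stood at 2.79.

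**Figure D4:**
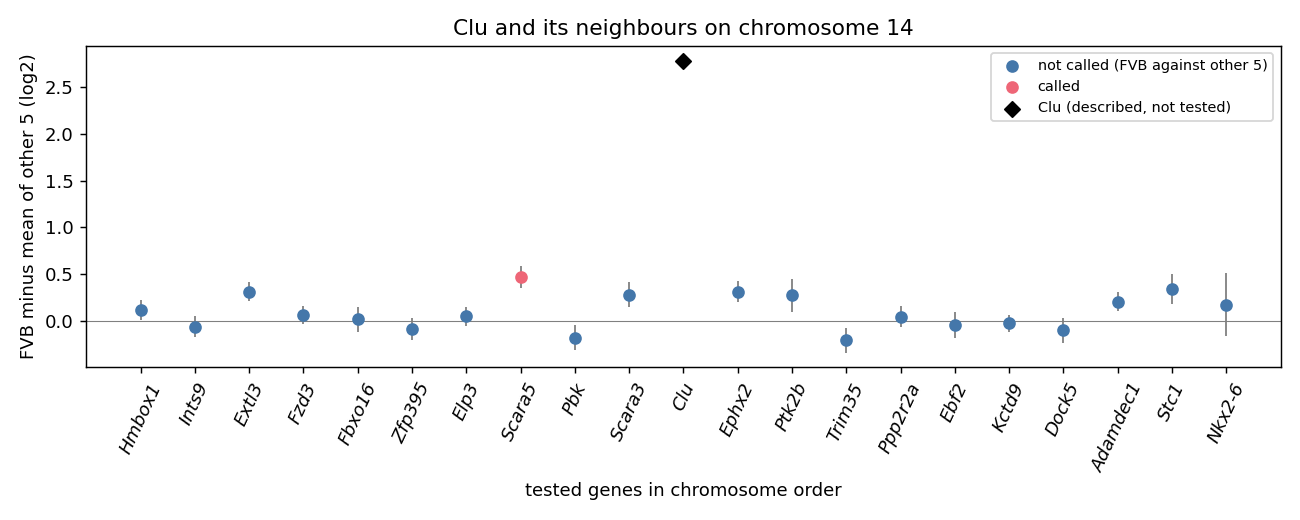
FVB minus the mean of the other 5 strains (log2) for Clu and the 20 nearest tested genes, in chromosome order at even spacing. Error bars are standard errors, and the red point is Scara5, the only neighbour called. Clu stands at 2.79 and its neighbours between -0.21 and 0.47.

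The 2 adjacent tested genes showed other strain patterns. Scara3, a scavenger receptor-like protein, ran from 5.64 ± 0.06 in C57BL/6 to 6.15 ± 0.39 in SWR (SD, n = 4; limma F test adjusted p = 0.041), a call lost in 11 of the 24 fits that each left out 1 array. Ephx2, the soluble epoxide hydrolase, ran from 5.59 ± 0.08 in C57BL/6 to 6.28 ± 0.26 in BALB/c, and was 1.38-fold lower in C57BL/6 (adjusted p = 0.0087; 0.054 without the 6 arrays numbered 4). Its FVB difference of 1.24-fold had an adjusted p of 0.11. C57BL/6 had the lowest mean for both, as it had for Clu. For Scara3 it was nearly level with BALB/c at 5.66 and AKR at 5.68. The Scara3 difference of C57BL/6 from the other strains had a limma adjusted p of 0.215.

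Among genes that passed the F test with a range of at least 1 on the log2 scale (9.09% of probe sets, and 769 genes other than Clu), those most like Clu were ordered by Pearson correlation with 1454849_x_at over the 24 arrays. The 8 highest were Tph1 (0.84), Ptgdr (0.82), Psmc3ip (0.78), Creb3l1 (0.77), Hbb-b2 (0.75), Ibsp (0.75), Fn1 (0.72) and Plin4 (0.72). No gene exceeded 0.9, and 2 exceeded 0.8. All 8 had their highest mean in FVB. Over the 20 arrays without FVB their correlations ran from -0.19 to 0.56, so the likeness lay mainly in the FVB arrays. The likeness is a description over arrays that share strain and scaling. Because it chose the genes, mainly through the FVB arrays, their FVB differences are given with no test.

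Tph1, the rate-limiting enzyme of serotonin synthesis, was 7.35 to 8.01 on the log2 scale on the FVB arrays and 4.36 to 6.29 on the others. Ptgdr, a prostaglandin D receptor, was 6.96 to 7.84 in FVB and 4.90 to 6.20 elsewhere. Creb3l1, a membrane-bound transcription factor of the secretory pathway, was 7.69 to 7.97 in FVB and 6.02 to 7.08 elsewhere. The FVB arrays did not overlap with the others for any of these 3 genes. FVB exceeded the other 5 strains by 2.26 ± 0.22 (log2 difference ± SE) for Tph1, 1.63 ± 0.20 for Ptgdr and 1.29 ± 0.13 for Creb3l1.

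The FVB arrays also lay above all others for Psmc3ip, a cofactor of meiotic recombination (2.72-fold), Hbb-b2, a beta globin with near-identical copies (2.86-fold), and Ibsp, bone sialoprotein (2.52-fold). The erythroid marker Alas2 was also higher in FVB, as it was in SWR, whereas the other tested erythroid marker, Hba-a1, was in FVB at 0.80 times the level of the other strains. The FVB arrays overlapped with other strains for Fn1, fibronectin (1.80-fold), and Plin4, a lipid droplet protein (1.94-fold). Fn1 passed the F test at 1 of its 2 probe sets. Plin4 is made by adipocytes, whose markers were also higher in FVB and in BALB/c, and it was 6.36 to 7.83 on the FVB arrays. Outside FVB 5 of the 8 were dim. Of the 20 other arrays, Ibsp exceeded the 40th percentile of the array on 4, Psmc3ip on 5, Hbb-b2 on 6, Tph1 on 7 and Ptgdr on 11. Their folds against values near the array background are on the log2(value + 16) scale and understate a change of low genes.

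The 4 genes most opposite to Clu were Acaa2 (r = -0.89), Tpd52l1 (-0.86), Plagl1 (-0.86) and Gjb2 (-0.85). Acaa2, a mitochondrial thiolase of fatty acid oxidation, was 7.01 to 7.63 in FVB and 8.93 to 10.24 elsewhere, and was 5.07-fold lower in FVB at its brightest probe set. Only 2 of its 3 tested probe sets met the rule for a lower call in FVB, which is given as a limit and not as a test. Tpd52l1, a vesicle trafficking protein, was 2.70-fold lower, Plagl1, an imprinted zinc finger factor, 2.29-fold lower, and Gjb2, a gap junction connexin, 1.67-fold lower. Gjb2, Plagl1 and Tpd52l1 had their highest mean in C57BL/6, the lowest strain for Clu, and Acaa2 had it in AKR. Their correlations over the 20 arrays without FVB were -0.71, -0.59, -0.48 and -0.28 in that order.

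**Figure D5:**
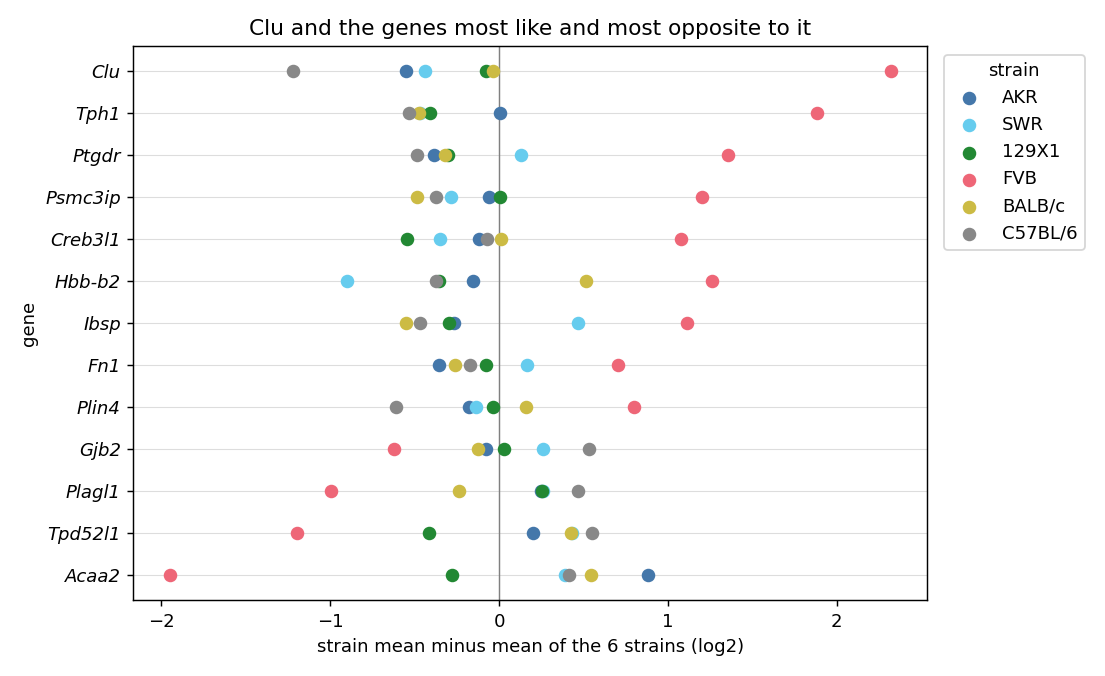
Strain means minus the mean of the 6 strains (log2) for Clu, the 8 genes most like it and the 4 most opposite to it over 24 arrays. FVB is the highest strain for Clu and the 8 like genes and the lowest for the 4 opposite genes, and the order of the other strains differs from gene to gene.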

How the data were processed

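Ventral prostate RNA of 24 arrays was analysed. The deposited intensity values are linear, 1 per probe set and array. MAS5 made them per the submitters' processing notes, with no version or settings stated, and the array means averaged 143 over the 24 arrays. Per the file headers no build is named, so no coordinates are given.

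The deposited intensities were rescaled to a 2% trimmed mean of 98.7 (arrays 91.4 to 105), then log2(value + 16) was computed. The 22690 probe sets include 64 controls and 6851 dim ones, not above the 40th percentile of their array on at least 4 arrays, and neither kind was tested. A single gene symbol was given for 20393, several for 691 and none for 1606, and 20364 matched RefSeq (GRCm38.p6), used for names and gene order. Tests used limma 3.58.1 in R 4.3.3 (F test among strains; 1 strain against the averaged other 5), with Benjamini-Hochberg adjustment at 0.05 and 18 residual plus 4.85 prior degrees of freedom. The fit was tested on simulated data. Array number limits the precision.

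Clu and the lists were chosen with earlier results of these data known. Named were up to 4 F-called members per list with the widest range, the 8 most like and 4 most opposite genes, and F-called genes among 10 neighbours on each side. FVB-called list members, and members named with values that missed the threshold, were named after their values were seen. Alternatives were other scaling, pseudocounts, filters, probe sets, a replicate block and left-out arrays. List genes without a single-symbol probe set were not analysed here.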

Additional observations from a re-analysis of the deposited data

Results flagged for a closer look

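Clu and the 12 genes most like or opposite to it were checked for single arrays far from the other 3 of their strain, and 6 of 96 groups had one. Chance gives about 1 in 20 groups. For Clu at 1437458_x_at, FVB replicate 4 was 10.97 on the log2 scale, against 11.69 to 11.83 on the other FVB arrays. Ptgdr was 4.90 on AKR replicate 4, against 5.64 to 5.76, and 5.61 on SWR replicate 4, against 6.12 to 6.20. Ibsp at 1417485_at was 4.47 on BALB/c replicate 1, against 4.82 to 4.88. Plin4 was 7.22 on BALB/c replicate 1, against 6.32 to 6.41, and that array also had the highest adipocyte score of its strain, at 2.34. Tpd52l1 was 7.84 on C57BL/6 replicate 3, against 7.65 to 7.68.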

How the results depend on the processing

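The FVB difference of Clu stayed positive in every alternative that gave it. The range cannot be negative, so only its size is compared. Clu was chosen for its wide spread on these same arrays, so the stability of these values is no support for them. With 1 array left out the range was 3.45 to 3.65 and the FVB difference 2.69 to 2.89 (log2). At 1418626_a_at the range was 3.83, the FVB difference 3.46, BALB/c -0.76 and C57BL/6 -1.13. At 1437458_x_at the range was 3.09, 129X1 -0.32, BALB/c -0.25 and C57BL/6 -0.90. At 1437689_x_at FVB was 3.05, BALB/c -0.54 and C57BL/6 -0.99. For the mean of the 4 probe sets FVB was 3.03, BALB/c -0.40 and C57BL/6 -1.12. The values of BALB/c, 129X1 and C57BL/6 are against a mean that includes FVB, which lowers them.

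The convertase list had 1 F-called member without rescaling, 0 with quantile normalization, 1 with a pseudocount of 1, 1 without a filter, 1 with the replicate block, and 0 to 3 with 1 array left out. The receptor list had 1 to 3 with 1 array left out. The regulator list had 8 without rescaling, and the neighbours had 3 with a filter at the 60th percentile, where fewer genes were tested. Leaving out the 6 arrays numbered 4 gave 848 called probe sets for AKR (1545 with all arrays), 1193 for 129X1 (1837), 1968 for BALB/c (2985), and 1 receptor, 5 complement and 0 apoptosis members. With 1 array left out AKR gave 917 to 1710 called probe sets, SWR 921 to 1809 (1666 with all arrays), FVB 663 to 1164 (1119) and C57BL/6 1147 to 1861 (1750). Counts more than 1.5 times below those of all arrays came without AKR replicates 1, 3 or 4, SWR replicates 1 or 2, FVB replicates 1, 3 or 4, and C57BL/6 replicates 1 or 3. Of 271 results for named genes, 182 kept their call in every alternative that tested their probe set, 89 lost it in at least 1, and 0 reversed. An alternative whose filter removed the probe set was not counted as a loss. The cause of these changes was not tested. The 271 include calls of the genes chosen for likeness or opposition to Clu. Those calls follow in part from that choice, so their stability is no support for them.

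Arrays of equal replicate number did not deviate together (mean correlation 0.01 over 60 pairs, from -0.21 to 0.15), so the numbers were not taken as pairs. The replicate block gave 5521 F-called probe sets in place of 5739. Signal near the array background limits the low genes, such as Fas and C9.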
